A study of Drosophila melanogaster with 9 samples.

Results

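Ovaries of Drosophila melanogaster females that carried moe[NES] over moe[G0415], named the mutant by the labels, were compared by RNA sequencing with ovaries of females that carried moe[G0415] over w1118, the null heterozygote. The comparison uses 6 of the 9 libraries of the series, 3 of each genotype, chosen by the genotype in the labels, and covers the 8642 of 17558 listed genes that had enough counts to be tested. Both groups carry 1 copy of the moe[G0415] null allele, so the comparison exchanges the chromosome that holds the second copy of Moe, which is w1118 in the control and moe[NES] in the mutant. Females were 3 days old and reared at 25 °C, the labels give 10 females per genotype and 3 replicates without saying whether each library holds 10, and they list no heat treatment. The 3 other libraries, from females with moe[NES] over w1118 (the NES heterozygote), entered the fit through the shared estimate of the spread, and their values are given beside some genes. The NES heterozygote shares the moe[NES] chromosome with the mutant and the w1118 chromosome with the null heterozygote. Nothing in the labels ties the replicates to separate crosses, and p-values therefore cover only the spread among these preparations, which may be technical. The labels also do not say whether the rest of the X chromosome and the autosomes were matched, so an effect of the Moe allele and one of other sequence in the stocks cannot be told apart.

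Moesin is the single ERM protein of the fly, a family that ties actin filaments to the plasma membrane. It is also found in the nucleus, where it has been linked to the export of mRNA, and the NES allele carries a nuclear export signal that is meant to keep the protein out of that compartment. The fly ovary is made of strings of egg chambers in which germline nurse cells feed an oocyte, an epithelium of follicle cells secretes yolk protein and eggshell, and a muscle sheath surrounds the whole. RNA from whole ovaries mixes these cells, so fewer cells of a type and less RNA per cell cannot be told apart in any value given here.

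The 6 libraries held 31.8 to 43.6 M counts (M, 1000000), and levels are given as counts per M after TMM scaling (CPM). All 8 germline markers examined were tested, with a summed level of 2860.4 to 3796 CPM in the null heterozygote and 3234 to 3719 CPM in the mutant. The libraries of the control were not alike. Chorion and other eggshell genes, which follicle cells transcribe late in egg chamber growth, made up 0.971% and 1.16% of all counts for control replicates 1 and 3, but 4.47% for replicate 2. They took 5.19%, 3.43% and 4.66% in the mutant replicates, so control replicate 2 lay among the mutant libraries and replicates 1 and 3 lay below them. With replicate 2 left out, 3679 genes passed the test that follows, and with replicates 1 and 3 left out together 19 did.

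The target gene was examined as a check of the labels. Moe (chromosome X, 8873012 to 8898332, BDGP6.54) was at 356, 439 and 368 CPM in null heterozygote replicates 1, 2 and 3, and at 403, 385 and 439.9 CPM in the mutant replicates. The groups overlapped, and the log2 fold change of 0.08 (SE 0.11, adjusted p = 0.671) became -0.11 without null heterozygote replicates 1 and 3. Both groups hold the null allele and 1 other Moe copy, so a comparison of these groups does not test the labels. In the NES heterozygote, which lacks moe[G0415], Moe was at 619, 769 and 692 CPM, above all libraries that carry moe[G0415]. The amount and place of the protein were not measured. The gene w, the eye colour gene that is also used as a transgene marker, was at 21.6, 36.4 and 21.2 CPM in null heterozygote ovaries and at 42.8, 37.2 and 37.99 CPM in the mutant (adjusted p = 0.415). In the NES heterozygote it was at 1.18, 0.296 and 1.78 CPM, below all libraries that carry moe[G0415].

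Of the 8642 genes, 108 (1.25%) differed between mutant and null heterozygote at an adjusted p under 0.05 by the edgeR quasi-likelihood test. Of these, 71 rose in the mutant (0.822% of genes tested) and 37 fell (0.428%). The groups did not overlap in any of the 108, against 10.6% of all genes tested with every mutant library above and 7.8% with every mutant library below. The test picks such genes from these same libraries, so the lack of overlap is no separate support for the calls. The median log2 fold change was 1.73 among the genes that rose and -1.32 among those that fell, while the median over all genes tested was 0.00. More than 2-fold changes were seen for 50 genes that rose and 19 that fell, and more than 8-fold changes for 23 and 10. The genes that passed were often of low level, with a median of 13.9 CPM against 42.3 CPM for all genes tested, and 13 of them averaged below 1 CPM. They held 97 of 8064 protein-coding genes tested, 6 of 236 non-coding RNA genes, all of which rose, and 4 of 51 pseudogenes, of which 2 rose. Of the 108, 20 belonged to at least 1 of the 39 gene lists examined and 88 to none. The share of all genes tested that the lists hold was not computed, so these counts do not show where the response lay.

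**Figure D1:**
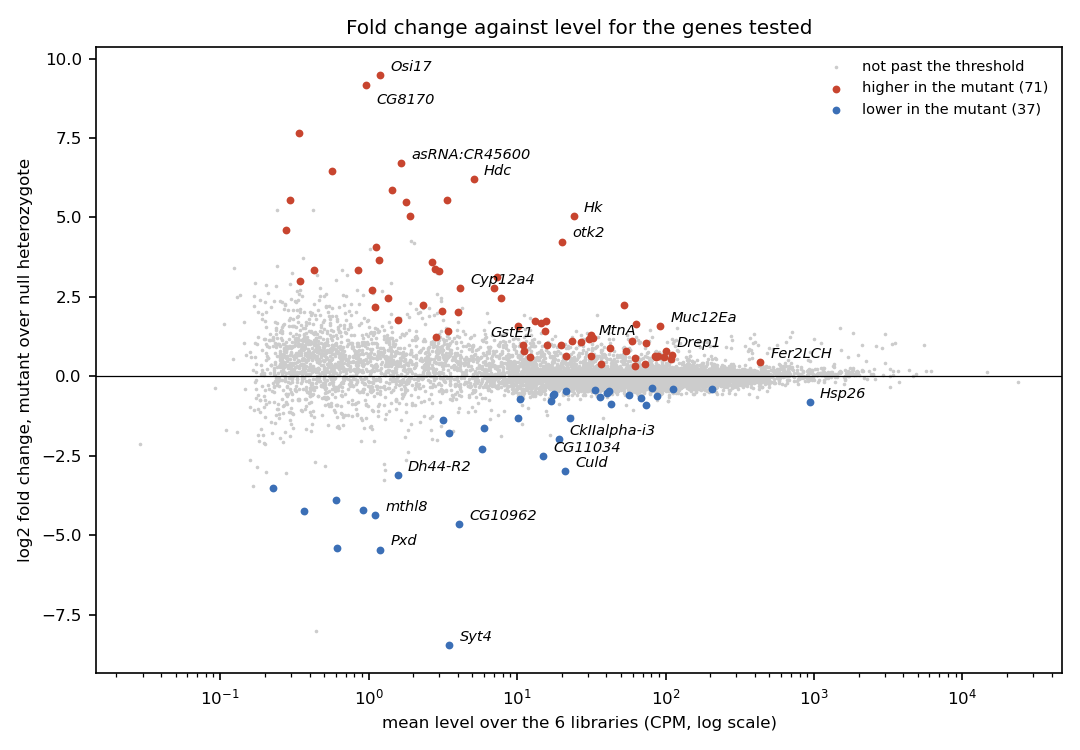
Log2 fold change of the mutant over the null heterozygote (vertical axis) against the mean level over the 6 libraries in CPM (horizontal log axis), with 1 point per gene tested; red points are the 71 genes that rose, blue points the 37 that fell and grey points the rest. The largest changes, from Osi17 at 9.47 to Syt4 at -8.45, lie at low levels, and Hsp26 is the most abundant gene that passed.

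Genes at or near absence in the control formed the top of the list. Osi17, a member of the insect Osiris family (chromosome 3R, 6311772 to 6327308), had 0 counts in all 3 null heterozygote libraries and 2.95, 1.22 and 3.01 CPM in the mutant. Its 294 mutant counts put it at least 87.6-fold higher, with the control set to a floor of 3 counts over the group. CG8170 (chromosome 2R, 9019032 to 9031045) also had 0 control counts and reached 2.15, 0.899 and 2.72 CPM, at least 70.3-fold higher. Cngl, which encodes a subunit like those of cyclic nucleotide-gated ion channels, went from 0 counts to 83, at least 24.7-fold higher. These genes thus had no counts in the control and low but present counts in each mutant library. The transcripts asRNA:CR45600 and CR41379 had 3 and 1 control counts against 400 and 136 mutant counts, ratios of 119 (95% interval 40.5 to 580.2) and 122 (21.4 to 4835). For lncRNA:CR44472 the ratio was 62.6 (10.9 to 2506), and for CG18545 it was 29.0 (7.72 to 245). All 7 genes were also above 0 in the NES heterozygote, with 30 counts for Cngl, 38 for lncRNA:CR44472 and between 46 and 171 for the 5 others.

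Hdc, Hk, cpx and comm3 rose, each from a low level in the control. Hdc, histidine decarboxylase, which makes the photoreceptor transmitter histamine (chromosome 2R, 10237988 to 10246077), was at 0.0791, 0.324 and 0.0253 CPM in null heterozygote ovaries and at 12.3, 6.11 and 11.7 CPM in mutant ovaries (log2 fold change 6.20, SE 0.90, adjusted p = 0.0162). Hk, the beta subunit of the Shaker potassium channel (chromosome X, 10233347 to 10263485), stood at 0.633, 3.08 and 0.658 CPM against 69.0, 42.7 and 28.1 CPM (log2 fold change 5.04, SE 0.65, adjusted p = 0.0102). In both genes the lowest mutant library was above the highest control library. The change in Hk was 3.91 without null heterozygote replicates 1 and 3, and that of Hdc 4.93, neither past the threshold with 1 control left (adjusted p = 0.10 and 0.28). cpx, complexin, which clamps synaptic vesicle fusion, rose by 3.603 on the log2 scale from 0.475, 0.292 and 0.43 CPM to 8.88, 3.17 and 2.69 CPM. comm3, a relative of the axon guidance gene commissureless, rose by 3.65. The nervous system marker list had 7 of 18 members tested, of which Hdc and cpx rose and 0 fell by edgeR, against 0.822% and 0.428% of all genes tested, and its median log2 fold change of 0.80 became 0.19 without null heterozygote replicates 1 and 3. All 7 tested members had a log2 fold change above 0, against 50.0% of all genes tested. In 3 of the 7 every mutant library lay above every control library, against 10.6% of all genes tested. The summed level of the list was 68.04 to 71.2 CPM in the control and 84.3 to 95.4 CPM in the mutant. Its members Rdl, VGlut and Gad1 were at 0 in all 6 libraries. The part of nervous tissue in the changes of Hdc, Hk and cpx was not tested.

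Genes of the cell surface also rose. otk2, which encodes an off-track transmembrane protein of the Wnt co-receptor family (chromosome 2R, 12023146 to 12025272), was at 0.923, 2.60 and 2.51 CPM in null heterozygote ovaries and at 36.9, 30.8 and 45.8 CPM in mutant ovaries (log2 fold change 4.24, SE 0.37, adjusted p = 0.00162). At 2.08, 3.02 and 2.56 CPM, the NES heterozygote lay close to the control for this gene. dpr6, an immunoglobulin family protein of the defective proboscis extension group, rose by 0.80 from 36.4, 40.4 and 41.3 CPM to 63.1, 64.6 and 77.9 CPM. The immunoglobulin family list had 27 of 58 members tested, with otk2 and dpr6 that rose and 0 that fell by edgeR, against 0.822% and 0.428% of all genes tested. DESeq2 placed 6 higher and 1 lower, against 3.86% and 2.52% of all genes tested. The list median of 0.39 was 0.22 without null heterozygote replicates 1 and 3, and 0.60 without replicate 2, where 10 genes were higher and 1 lower, against 20.8% of all genes tested in each direction. Its member dpr2 had 0 counts in all mutant libraries against 0.422, 1.65 and 0.557 CPM in the control and missed the threshold (adjusted p = 0.0534). rst, the roughest adhesion protein, stood at 11.7, 19.99 and 12.6 CPM against 36.4, 27.6 and 32.6 CPM (adjusted p = 0.0608).

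Some enzymes of detoxification rose with little spread between libraries. Cyp12a4, a mitochondrial cytochrome P450 (chromosome 3R, 19135158 to 19137136), rose by 2.78 (SE 0.18, adjusted p = 0.000585) from 1.16, 1.04 and 0.937 CPM to 7.46, 7.51 and 6.62 CPM. Its level in the NES heterozygote, 6.63, 8.83 and 8.16 CPM, was close to that of the mutant. GstE1, a glutathione transferase that couples glutathione to toxic compounds, rose by 1.43 (SE 0.12, adjusted p = 0.00134) from 8.07, 8.83 and 8.03 CPM to 21.8, 24.2 and 21.1 CPM. The libraries of either group lay within a narrow band for both genes, and neither gene lost its call in any of the 20 alternatives. The related GstE9 rose by 2.03 and GstE6 by 0.56. These 3 genes were those that rose among 29 glutathione transferases tested, and 0 fell, against 0.822% and 0.428% of all genes tested. The list median was 0.04. Among 44 cytochrome P450 genes, Cyp12a4 and Cyp6a17 (2.47) rose and Cyp6d4 (-1.79) fell, against 0.822% and 0.428% of all genes tested. The median of the 44 was 0.17. Of 15 UDP-glycosyltransferases, which attach sugars to such compounds, 0 passed by edgeR, 2 had an unadjusted p under 0.05, and DESeq2 placed 1 higher and 1 lower. Of all genes tested, 17.0% had an unadjusted p under 0.05, and DESeq2 placed 3.86% higher and 2.52% lower.

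**Figure D2:**
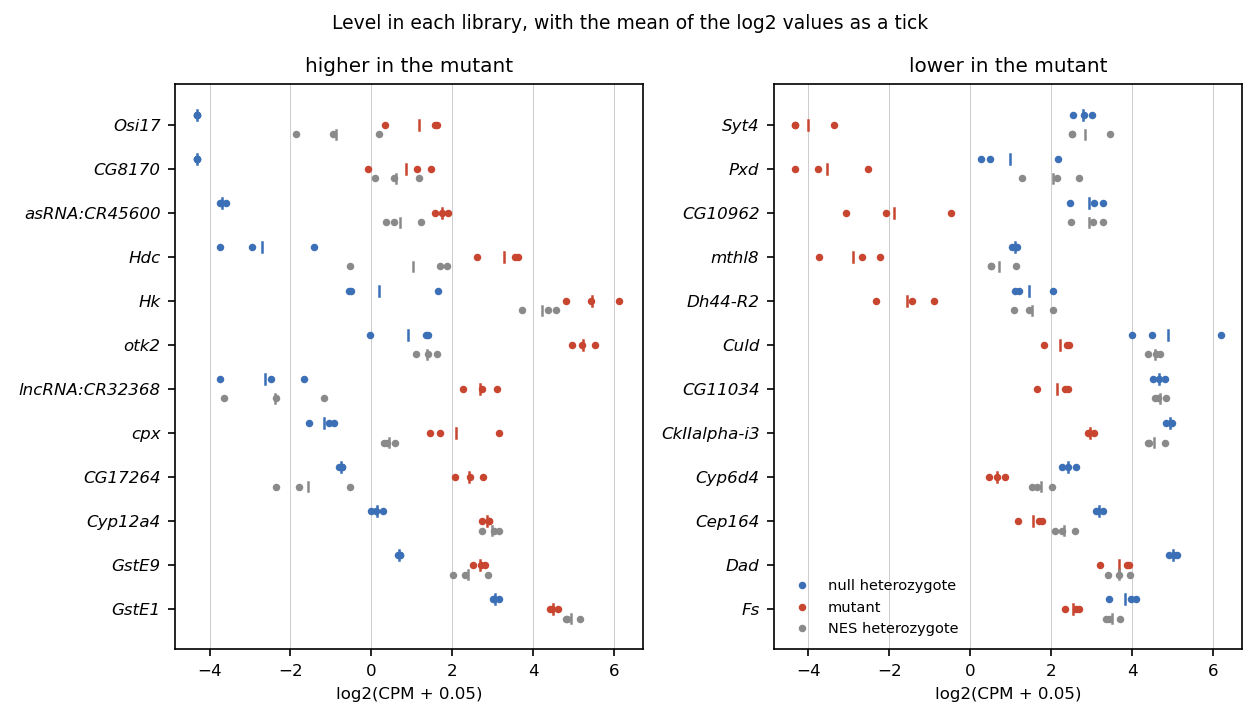
Level of 24 genes in each library as log2 of CPM + 0.05 (horizontal axes), 12 that rose on the left and 12 that fell on the right; points are libraries of the null heterozygote (blue), mutant (red) and NES heterozygote (grey), and ticks are means of the log2 values. Blue and red points never overlap, which holds for all genes that passed. Grey points lie near red for Cyp12a4 and near blue for otk2 and CG10962.

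Metal binding proteins and a mucin were among the more abundant genes that rose. MtnA, a metallothionein that binds copper and other metals, rose by 1.16 (SE 0.20, adjusted p = 0.0288), from 16.1, 24.5 and 15.7 CPM to 45.9, 40.7 and 39.0 CPM. Fer2LCH, the ferritin light chain, rose by 0.46, from 389, 355 and 352 CPM to 541, 463 and 499.9 CPM, while its partner Fer1HCH had a log2 fold change of 0.22 and did not pass. Both MtnA and Fer2LCH were above every control library in each mutant library. The metal homeostasis list had 13 of 17 members tested, with a median of 0.22. Of these, MtnA and Fer2LCH rose and 0 fell, against 0.822% and 0.428% of all genes tested. Muc12Ea, a mucin in the eggshell list, rose by 1.58 from 36.01, 58.7 and 42.8 CPM to 131, 128 and 151 CPM, and by 1.21 without null heterozygote replicates 1 and 3, where it did not pass. Drep1, a fly relative of the inhibitor of the apoptotic nuclease DFF, rose by 0.79 from 77.2, 71.2 and 73.0 CPM to 126, 136 and 120.2 CPM and was the member that passed of 16 caspase and Drep genes. Itpr, the inositol trisphosphate receptor of the calcium store, rose by 0.65 and was the member that passed of 14 calcium store genes, whose median was -0.01. In these lists 1 of 16 and 1 of 14 genes thus passed, against 1.25% of all genes tested. MCTS1, a factor of translation re-initiation, rose by 0.60, and Hsdl2, a hydroxysteroid dehydrogenase-like protein, by 0.66. Edem1, which acts in the disposal of misfolded glycoproteins, had the smallest change of the 71, at 0.31.

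The deepest loss was that of Syt4, a synaptotagmin that senses calcium in vesicle release (chromosome 3R, 7266065 to 7270809). Its level was 8.04, 5.81 and 6.99 CPM in the null heterozygote and 0.0468, 0 and 0 CPM in the mutant, 760 counts against 2 (ratio 425, 95% interval 117 to 3518, counting error only). The NES heterozygote had 10.96, 5.63 and 5.65 CPM, which overlapped the control. Of 6 synaptotagmins tested, Syt4 was the member that passed, against 1.25% of all genes tested. CG32187 went from 128 counts to 3, a ratio of 47.7 (15.97 to 235). CG10962, an X-linked gene (8972908 to 8974255), was at 9.70, 5.48 and 8.33 CPM in the control and at 0.0701, 0.185 and 0.666 CPM in mutant ovaries (log2 fold change -4.66, SE 0.64, adjusted p = 0.0135). At 9.66, 5.60 and 8.16 CPM the NES heterozygote was near the control. These genes were thus close to absent in the mutant, although not in the heterozygotes.

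Receptors, a peroxidase and a kinase-associated gene also fell. mthl8, a Methuselah-like receptor, fell by 4.37 on the log2 scale from 2.004, 2.17 and 2.13 CPM to 0.164, 0.106 and 0.0247 CPM. Dh44-R2, a receptor for diuretic hormone 44, fell by 3.12. Pxd, a heme peroxidase, fell by 5.46 from 1.16, 4.48 and 1.34 CPM to 0.0234, 0 and 0.123 CPM. Among 6 heme peroxidases tested it alone passed, against 1.25% of all genes tested. Culd, which encodes a transmembrane protein of photoreceptor endocytosis, fell by 2.98 from 16.003, 73.1 and 22.6 CPM to 5.42, 3.46 and 5.23 CPM. Control replicate 2 was the highest for both Pxd and Culd. CkIIalpha-i3, an interactor of the casein kinase 2 catalytic subunit (chromosome 3L, 708601 to 710607), stood at 31.2, 28.4 and 31.8 CPM against 7.46, 8.35 and 7.58 CPM (log2 fold change -1.97, SE 0.13, adjusted p = 0.000585). Among 4 casein kinase 2 genes tested it alone passed, against 1.25% of all genes tested. CG11034 fell by 2.51, CR44003 by 2.28 and CG6656 by 1.38. Cep164, a centriole appendage protein, fell by 1.63.

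Dad and Fs, whose products inhibit signalling by BMP and activin ligands, fell as well. Dad, the inhibitory Smad that BMP signalling induces (chromosome 3R, 17054007 to 17070408), was at 32.9, 34.5 and 30.2 CPM in null heterozygote ovaries and at 15.1, 14.7 and 9.23 CPM in mutant ovaries (log2 fold change -1.32, SE 0.21, adjusted p = 0.0223). Fs, follistatin, a secreted protein that binds activins, was at 15.8, 10.7 and 17.1 CPM against 6.03, 6.40 and 5.04 CPM (log2 fold change -1.32, SE 0.20, adjusted p = 0.0198). In the NES heterozygote Dad was at 10.6, 15.5 and 12.7 CPM, which overlapped the mutant, and Fs at 10.7, 12.9 and 10.3 CPM. No list of BMP pathway genes was examined, so the 2 genes stand alone here. The small changes among abundant genes that fell included Polr1E, a subunit of RNA polymerase I (-0.63), CG11076 (-0.41), CG11811 (-0.40) and nes, a lysophospholipid acyltransferase (-0.37).

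The series title concerns heat shock genes, whose products refold or hold damaged proteins. Small heat shock genes such as Hsp26 and Hsp27 are active in nurse cells without heat, whereas Hsp70 and Hsp68 are strongly induced by it. Of 18 inducible heat shock genes listed, 16 were tested, 1 fell and 0 rose, against 0.428% and 0.822% of all genes tested. DESeq2 placed 7 of them lower and 0 higher, against 2.52% and 3.86% of all genes tested. The median log2 fold change was -1.09. Of the 16, 15 lay below 0, against 50.0% of all genes tested above 0. In 10 of the 16 the mutant libraries lay below all control libraries, against 7.8% of all genes tested. The 16 include the 6 Hsp70 copies, which are near-identical and may share reads, so these counts do not stand for 16 independent genes. Hsp26 (chromosome 3L, 9376418 to 9377427), the member that passed, was at 1128, 1281 and 1155 CPM in null heterozygote ovaries and at 709, 649 and 682 CPM in mutant ovaries (log2 fold change -0.80, SE 0.12, adjusted p = 0.0198). Mutant levels averaged 57.3% of the control level. In the NES heterozygote Hsp26 was at 1299.9, 1817 and 1472 CPM.

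The other heat shock genes are given by level, since 0 of them passed by edgeR. Of the 16 tested, 8 had an unadjusted p under 0.05, against 17.0% of all genes tested. The 6 Hsp70 copies, summed because near-identical copies may share reads, were at 42.8, 50.3 and 49.5 CPM in null heterozygote ovaries and at 11.5, 21.2 and 7.87 CPM in the mutant. The control sum was 3.51-fold the mutant sum, and the exact two-sided permutation test gave p = 0.1, the smallest that 3 against 3 allows. Hsp23 stood at 27.8, 42.6 and 28.2 CPM against 12.6, 14.4 and 14.8 CPM, and Hsp27 at 891, 787 and 869 CPM against 709.7, 713 and 719 CPM. Hsp68, at 46.6, 52.9 and 61.5 CPM in the control, was spread from 7.33 to 39.4 CPM in the mutant. The NES heterozygote libraries also varied, at 23.7, 66.4 and 46.9 CPM for the Hsp70 sum. For Hsp68 they were at 37.8, 134 and 78.7 CPM, and for Hsp23 at 20.6, 81.9 and 35.1 CPM. The mutant was below the control in each of these genes, with mutant replicate 2 nearest to the control for Hsp68 and the Hsp70 sum. stv, a co-chaperone of Hsp70, had a log2 fold change of -1.21 (adjusted p = 0.108) that was -0.52 without null heterozygote replicates 1 and 3. Hsp83, the fly Hsp90, had a log2 fold change of 0.01, and Hsp22 had 0 counts in all libraries. Without null heterozygote replicates 1 and 3 the list median was -0.79 with 0 genes past the threshold, against 0.13% of all genes tested higher and 0.0761% lower. Without replicate 2 it was -1.11 with 7 genes lower, where 20.8% of all genes tested were lower. Of 23 constitutive chaperones tested, 0 passed by edgeR or DESeq2 and 0 had an unadjusted p under 0.05, with a median of 0.06. Without replicate 2 their median was 0.22, with 10 higher and 2 lower, and without replicates 1 and 3 it was -0.14, with 0 past the threshold by edgeR.

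**Figure D3:**
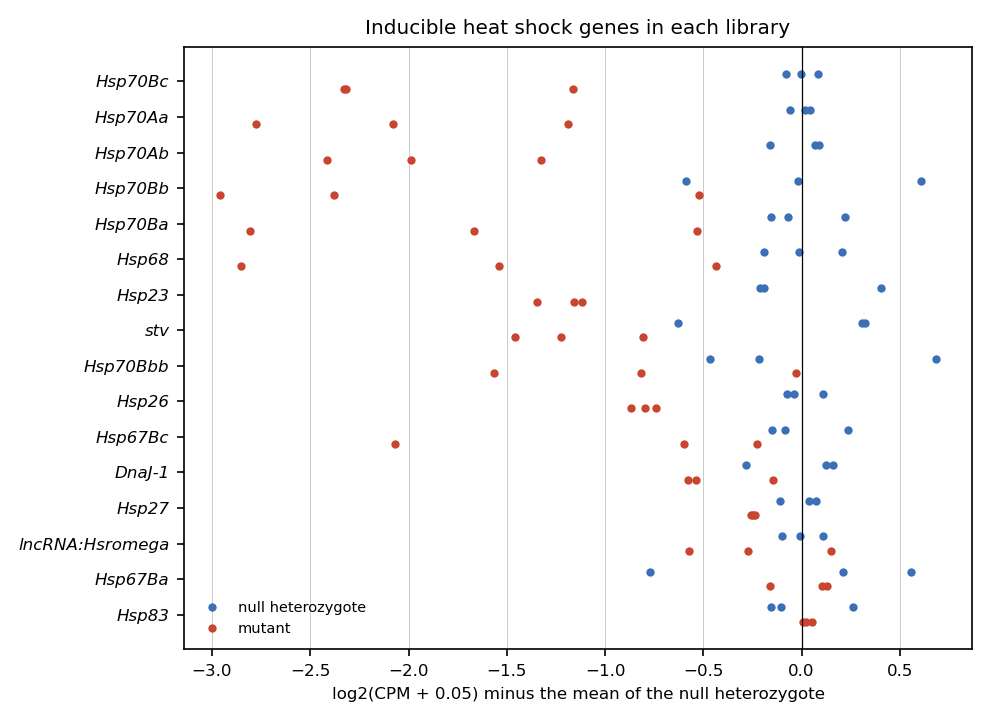
Level of the 16 tested inducible heat shock genes in each library, as log2 of CPM + 0.05 minus the mean of the null heterozygote (horizontal axis); blue points are null heterozygote and red points mutant libraries. Red points lie left of all blue points in 10 genes, and only Hsp26 passed the test.

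Genes of egg chamber growth moved with the libraries that stood apart. Of 9 chorion genes tested 0 passed by edgeR and 4 had an unadjusted p under 0.05, against 17.0% of all genes tested. DESeq2 placed 1 of them higher, against 3.86% of all genes tested, and their median log2 fold change was 0.98. Of 29 other eggshell genes 1 rose and 0 fell, against 0.822% and 0.428% of all genes tested, with a median of 1.02. Without null heterozygote replicates 1 and 3 these medians were -0.14 and -0.03. Without replicate 2 they were 2.26 and 2.28, with 9 and 27 genes higher, where 20.8% of all genes tested were higher. The chorion gene Cp18 illustrates it: its control levels were 405, 1445 and 461 CPM in replicates 1, 2 and 3, and its mutant levels 2816, 1827 and 2059 CPM. The list of 4 yolk genes, with 3 yolk proteins and their uptake receptor, moved alike, at 0.93, -0.04 without replicates 1 and 3, and 2.23 without replicate 2. The lists of 17 follicle cell and 21 sheath muscle genes had medians of 0.62 and 0.56, and -0.02 and 0.02 without replicates 1 and 3. So the size, and for some lists the sign, of these medians followed the control libraries kept.

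Among the genes that passed, control replicate 2 was the highest of its group in 35 of the 71 that rose (49.3%) and the lowest in 19 of the 37 that fell (51.4%). Of all genes tested with a log2 fold change above 0, it was the highest in 73.4%. Of those below 0, it was the lowest in 70.7%. With null heterozygote replicates 1 and 3 left out, 18 of the 108 still passed, with 1 control library whose spread was taken from the other groups. The fold changes of the 108 had a median of 0.964 times the value with all libraries. Their sign could not turn there, since their groups do not overlap. The part of the uneven control libraries in these calls was not tested.

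**Figure D4:**
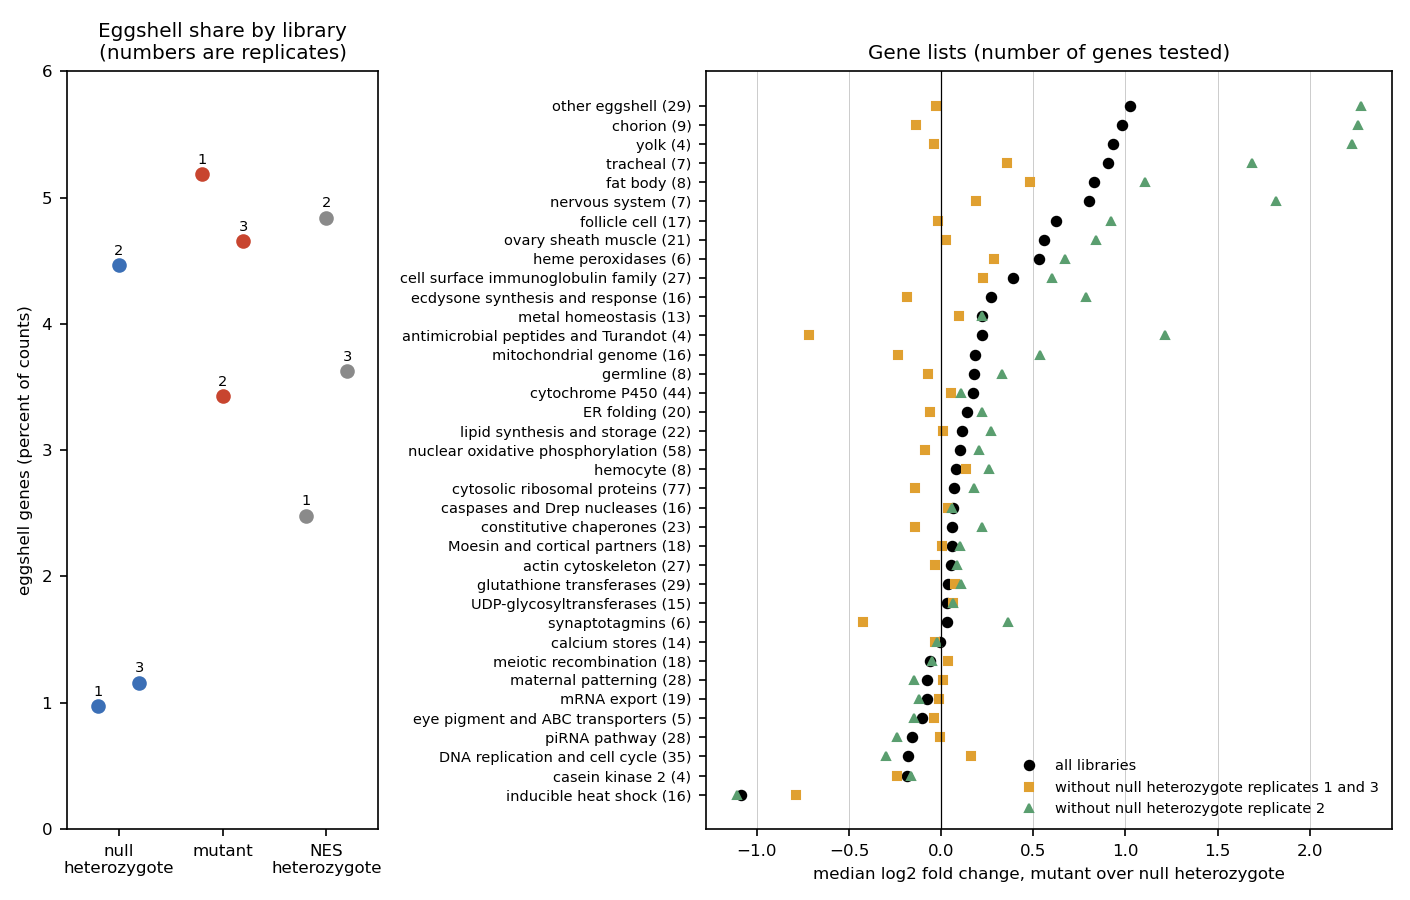
Left, share of counts in eggshell genes in each library in percent, with replicate numbers; right, median log2 fold change of each gene list with at least 4 tested members (number tested in brackets), with all libraries (black), without null heterozygote replicates 1 and 3 (orange squares) and without replicate 2 (green triangles). Eggshell and yolk medians move from about 0 to above 2 with the control libraries kept, and the inducible heat shock median stays below 0 in each.

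With all libraries, lists of several other cell processes held 0 genes past the threshold by edgeR, against 1.25% of all genes tested. In lists of these sizes a count of 0 is near that share. In the list of 18 Moesin and cortical partners, 0 passed by edgeR or DESeq2, 3 had an unadjusted p under 0.05 and the median was 0.06. Of 19 mRNA export genes, 0 passed by either tool, 1 had an unadjusted p under 0.05 and the median was -0.08. By edgeR, the count was also 0 for 27 actin cytoskeleton genes, 28 piRNA pathway genes, 35 DNA replication and cell cycle genes, 18 meiotic recombination genes, 28 maternal patterning genes, 77 cytosolic ribosomal protein genes, 58 nuclear oxidative phosphorylation genes, 22 lipid genes and 16 ecdysone genes. Their medians lay between -0.18 and 0.27, and each list held 0 to 5 genes with an unadjusted p under 0.05. DESeq2 placed 0 to 2 genes of a list past its threshold, against 3.86% of all genes tested higher and 2.52% lower. That no member passed does not show that these genes were equal, since 1465 genes (17.0%) had an unadjusted p under 0.05.

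These counts of 0 changed in the fit without control replicate 2, where 20.8% of all genes tested were higher and 20.8% lower. The part of that library in the counts of 0 was not tested. With replicate 2 left out, 27 of the 77 ribosomal protein genes and 26 of the 58 oxidative phosphorylation genes were higher and 0 lower. Of the 35 DNA replication genes 21 were then lower and 1 higher, of the 28 piRNA genes 13 lower and 4 higher, of the 16 ecdysone genes 11 higher and 1 lower, and of the 19 mRNA export genes 5 lower and 0 higher. Of the 18 Moesin and cortical partners 4 were higher and 3 lower. Some medians changed sign with the control libraries kept. The DNA replication median of -0.18 was 0.16 without null heterozygote replicates 1 and 3 and 0.18 with the eggshell share as a covariate, where 10 of its genes were higher and 0 lower, against 6.21% and 3.33% of all genes tested. The ecdysone median of 0.27 was -0.19 and -0.22 in these fits, and 0.79 without replicate 2. The ribosomal protein median of 0.07 was -0.14 without replicates 1 and 3.

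Of the summed markers of 4 other tissues, the tracheal sums lay apart between the groups, while the gut, hemocyte and fat body sums overlapped. Summed gut markers reached 0.886 to 2.08 CPM in the control and 16.9, 1.24 and 59.4 CPM in mutant replicates 1, 2 and 3, and tracheal markers 2.76 to 6.20 CPM and 7.59 to 10.8 CPM. Hemocyte markers summed to 574 to 777 CPM in the control and 677 to 832 CPM in the mutant. Fat body markers summed to 228, 1465 and 284 CPM in control replicates 1, 2 and 3 and to 1250.3 to 1707 CPM in the mutant. The fat body list holds Yp1, which follicle cells also make, at 187 to 1402 CPM in the control. By edgeR 0 genes of these 4 lists passed, with 1 to 3 per list at an unadjusted p under 0.05, while DESeq2 placed 2 tracheal genes higher and 0 of the other lists. Of all genes tested, 17.0% had an unadjusted p under 0.05, and DESeq2 placed 3.86% higher. The part of these tissues in the changes described above was not tested.

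The genes that passed were spread over the genome. On the X, the chromosome that differs by design, 17 of 1497 genes tested passed (1.14%), 13 higher and 4 lower. The shares were 0.945% on 2L, 1.71% on 2R, 0.986% on 3L and 1.46% on 3R, and 1 of 80 genes passed on chromosome 4. Within 1 Mb of Moe, 2 of 161 other genes tested passed (1.24%), against 1.25% overall. These are CG10962, described above, and CG12123, which rose by 0.90 from 27.9, 27.8 and 32.1 CPM to 45.9, 50.4 and 67.5 CPM. The median log2 fold change in that window was -0.02.

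Genes that passed were also found next to each other. Of 107 with an annotated position, 17 (15.9%) had another such gene within 20 kb, compared with 544 of 8339 genes that did not pass (6.52%), a difference that was not tested. In 15 of the 17 the nearest such gene moved the same way, where 71 of all 108 genes that passed rose. Both members of a pair are counted, so the 17 are not independent. The glutathione transferases GstE1, GstE6 and GstE9 lie in 1 cluster on 2R, all on the plus strand. otk2 and Drep1, both higher, lie 19.3 kb apart on the same arm. CG6912 (log2 fold change 3.37, 15135138 to 15137004) and asRNA:CR45600 (15136985 to 15140121) overlap only at their ends, on the minus strand of 3R. Reads from the shared stretch may not be separable. The following pairs were picked after their values were seen. Nepl21 (2.77) and CG33203 (3.35) overlap on opposite strands of 3R, as do TfIIFbeta (0.40), a general transcription factor subunit, and Cap-H2 (0.63), a condensin subunit. The genes sotv (-0.53), which makes heparan sulfate chains, and CG10731 (-0.57) lie 93 bases apart on 2R, both on the minus strand.

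Calls differed in how often they recurred over the 20 alternative analyses. 8 genes passed in the same direction in all of them, among them otk2, Cyp12a4, GstE1, CkIIalpha-i3, CG11034, lncRNA:CR42861 and CR14033. The last 2 are named for this reason, after their values were seen. Of these, lncRNA:CR42861 rose from 1.85, 2.95 and 2.38 CPM to 15.1, 12.9 and 11.2 CPM. 40 genes passed in at least 15 alternatives, 29 of them higher, and 37 passed in 10 or fewer. Hsp26 passed in 13, Syt4 in 19, Hk in 17, Hdc in 13, Pxd in 8 and Culd in 9.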

How the data were processed

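For every library the authors deposited unnormalized read counts of genes. Per the labels' protocols, TRIzol RNA went into stranded TruSeq mRNA libraries. The submitters' processing notes name BDGP6, HTSeq, HISAT2 2.0.4, SAMtools 0.1.19, Trimmomatic 0.36 and FastQC. Strand setting and handling of reads with several matches: not given in the sources used here, so values of overlapping or near-identical genes are uncertain. Symbols and positions came from Ensembl release 115 (BDGP6.54), which matched 17252 identifiers; the other 306, with 5.00% of counts, are not named.

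The analysis used edgeR 4.0.16 in R 4.3.3: filterByExpr (minimum count 10, minimum total 15), TMM scaling and the quasi-likelihood test on all 9 libraries with 1 coefficient per genotype. P-values were adjusted by Benjamini-Hochberg over all genes tested, threshold 0.05. Genes that rose or fell are those past it. Standard errors (SE) equal the size of the log2 fold change over the root of F. Against 0 counts, a floor of 3 counts for the whole group was used; ratios against 1 to 3 counts have exact 95% binomial intervals, and both cover counting error only. The procedure was tested on simulated data. Chi-square per degree of freedom between replicates was 16.7 or more, so each library counts once.

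Comparison members, lists and the rule for named genes were chosen with earlier results of these data known. The rule takes Moe and w, the 14 highest and 14 lowest log2 fold changes among genes past the threshold with at least 1 CPM, those in a list, the 5 most abundant each way, those within 1 Mb of Moe, those with 3 or fewer counts in a group, and up to 4 members of lowest p per described list. Several genes it takes are not described. Alternatives were other scalings (DESeq2 1.42.0 size factors, library size, TMM without eggshell, yolk and mitochondrial genes), other filters, DESeq2, the 6 libraries alone, a replicate block, testing for more than a 1.5-fold change, the eggshell share as a covariate, and libraries left out.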

Additional observations from a re-analysis of the deposited data

How the results depend on the processing

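Since the groups of the 108 genes do not overlap, leaving out libraries could not turn their sign, which is no sign of stability. The number past the threshold was 108 with DESeq2 size factors, 108 with library size, 112 with TMM without eggshell, yolk and mitochondrial genes, and 107 with no filter. It moved to 61 with at least 5 CPM, 552 with DESeq2, 51 with the 6 libraries alone, 40 against a 1.5-fold change, 825 with the eggshell share as a covariate and 19 without null heterozygote replicates 1 and 3. With 1 library left out the number lay between 26, without null heterozygote replicate 3, and 3679, without null heterozygote replicate 2. It was 42 without null heterozygote replicate 1, and 39, 56 and 49 without mutant replicates 1, 2 and 3. Where a library is left out, fewer samples enter; otherwise the cause was not tested.

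Deviations of same-numbered libraries correlated at -0.252, -0.452 and -0.139, and those of unlike-numbered libraries at -0.362 to 0.427. With 3 libraries a group and uneven control libraries, these values cannot show whether the replicate numbers mark a shared preparation. With the replicate block 59 genes passed, of which 58 were among the 108.

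Genes not past the threshold changed sign as follows. Without null heterozygote replicates 1 and 3, log2 fold changes were -0.027 for Yp1, -0.048 for Yp2, -0.36 for Yp3, -0.11 for Moe, 0.038 for tho2 and 0.11 for Mef2. With the eggshell covariate they were -0.21 for Yp3, -0.14 for Moe, 0.00055 for thoc7, 0.028 for tho2, 0.012 for Nxt1 and 0.10 for Mef2. Differences under the counting error of a few counts were not detectable at this depth.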

Other observations

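Other genes that passed, picked here after their values were seen, belong to none of the groups described above. GLaz, a glial lipocalin, rose by 3.13 on the log2 scale from 1.24, 2.63 and 0.709 CPM to 12.4, 14.5 and 12.8 CPM, and the NES heterozygote stood at 13.6, 10.6 and 13.96 CPM. Ten-a, a teneurin of cell adhesion, rose by 1.73, and Drip, an aquaporin, by 1.67. Bmcp, a mitochondrial uncoupling carrier, rose by 0.61 from 66.3, 76.3 and 62.3 CPM to 111, 98.0 and 103 CPM. Idgf2, a secreted growth factor related to chitinases, rose by 1.10 and passed in 7 of the 20 alternatives. Arc1, a capsid-forming relative of mammalian Arc, fell by 0.67 from 86.0, 76.5 and 88.5 CPM to 47.9, 48.8 and 60.7 CPM, and was at 23.5, 28.9 and 29.4 CPM in the NES heterozygote. For Arc1 the mutant therefore lay between the control and the NES heterozygote.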
